A study of Mus musculus with 4 samples.

Results

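Kupffer cells are the resident macrophages of the liver, and 10 genes that mark their identity or carry out their scavenging were read in every library of the series. The genes were chosen by name, with earlier results of these data known, and all 10 were found among the 25239 genes listed. They are Clec4f, Vsig4 and Timd4, whose expression in the liver is largely restricted to resident Kupffer cells, the scavenger genes Cd163, Cd5l, Folr2 and Marco, the transcription factor Spic, and the general macrophage genes Adgre1 and Csf1r. Livers came from C57BL/6 mice of 6 to 8 weeks, and every library was made from whole-liver total RNA. The control group, with 2 libraries, received normal saline. The extract group, labelled the PAs group, also with 2 libraries, received an extract of Gynura segetum, a plant that contains pyrrolizidine alkaloids, given daily by gavage (30 g/kg) over 3 weeks from a concentrate of 2 g/mL. The sources used here do not give sex, time of collection or pooling of animals. No label ties each library to its own mouse, so p-values measure the spread between these samples alone, and that spread may be technical.

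Kupffer cells line the hepatic sinusoids, where they take up bacteria, complement-coated particles, dying cells and free haemoglobin from portal blood. Their identity is set by the macrophage factor encoded by Spi1 together with signals from neighbouring endothelial, stellate and hepatic cells, among them CSF1 or IL-34 at the CSF1 receptor, Notch ligands and BMP or TGF-beta ligands. When resident cells are lost, monocytes can enter the niche and take on part of the resident programme, with Timd4 gained late. Pyrrolizidine alkaloids are activated in hepatocytes and injure the sinusoidal endothelium, the cells on which Kupffer cells rest.

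Gene counts totalled 49711750 and 32215268 in control replicates 1 and 2, and 40013188 and 45754235 in extract replicates 1 and 2. Levels are given as CPM, counts divided by library size after TMM scaling, which corrects for library composition. The labelled tissue fitted its markers, since 10 hepatocyte genes, albumin among them, held a large part of every library. They summed to 159500 and 167600 CPM in the controls and to 105200 and 110300 CPM after the extract. Control replicate 1 stood apart from control replicate 2 in leukocyte transcripts. The 11 listed T and NK cell genes found summed to 34.1 CPM in control replicate 1 and to 6.29 CPM in control replicate 2, against 2.13 and 4.14 CPM after the extract. For the 8 dendritic cell genes the sums were 123.2 and 35.1 CPM in the controls and 18.2 and 17.9 CPM after the extract. Most of each of these sums was the MHC class II gene H2-Ab1.

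All 10 genes were lower in both extract libraries than in either control library, and 9 of 10 passed edgeR's quasi-likelihood test at an adjusted p under 0.05. Of all 13963 genes tested, 3.63% passed in that direction, 4.91% in the other and 8.54% in either. That is 507 lower and 686 higher, and with total counts in place of TMM it was 338 lower and 940 higher. Without overlap between the groups, 26.7% of all genes were lower and 27.6% higher in the extract libraries. The log2 fold change was under -2 for 10 of 10 members and for 2.40% of all genes. Because the members were chosen with earlier results known, these shares are a description and not a test. The members' median log2 fold change was -3.72, against -0.0047 over all genes tested. Together the 10 genes held 587.9 and 466.1 CPM in the control libraries and 40.7 and 40.8 CPM in the extract libraries. In whole liver, fewer Kupffer cells and less RNA of these genes per cell cannot be told apart.

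**Figure D1:**
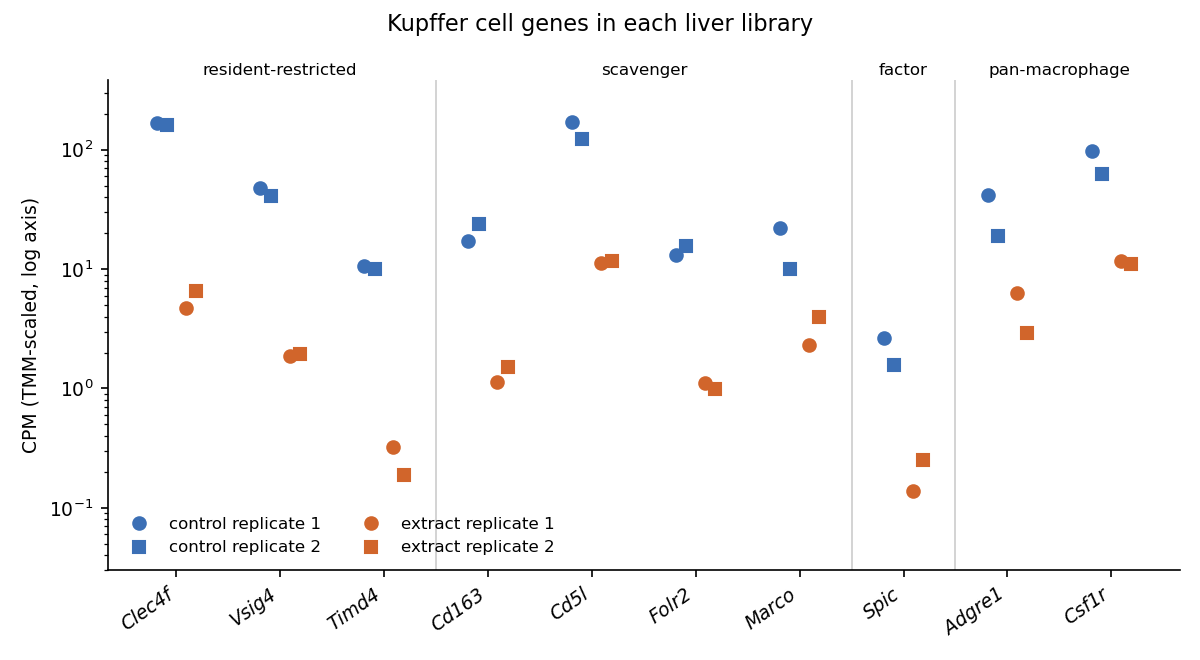
Level of each gene in each library as TMM-scaled CPM on a log axis, with blue points for control and orange points for extract libraries, circles for replicate 1 and squares for replicate 2. No extract point reaches a control point of the same gene, and the control points of Clec4f, Vsig4 and Timd4 lie closest together.

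The genes restricted to resident cells showed the deepest falls. Clec4f, a C-type lectin that binds galactose-bearing glycans, lies on chromosome 6 (83644542 to 83656116, mm10). Its level was 166.8 and 160.0 CPM in the control libraries and 4.73 and 6.51 CPM in the extract libraries. The control libraries differed by a factor of 1.04, so the drop far exceeded the spread within either group. The means were 163.4 ± 4.80 and 5.62 ± 1.26 CPM (SD, n = 2 libraries each), a 29.1-fold drop (log2 fold change -4.86, SE 0.21, 95% interval -5.35 to -4.37, edgeR adjusted p = 0.000206).

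Vsig4, a complement receptor through which Kupffer cells clear opsonised particles from blood, lies on chromosome X (96247201 to 96293438). It stood at 47.8 and 41.0 CPM in the controls and at 1.86 and 1.93 CPM after the extract. The extract libraries were nearly equal, and both lay far under the controls. The drop was 23.5-fold (log2 fold change -4.55, SE 0.18, edgeR adjusted p = 0.000196).

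Timd4, a receptor for the phosphatidylserine exposed by dying cells, lies on chromosome 11 (46810786 to 46844333). It had 513 and 299 counts in the control libraries and 14 and 9 counts in the extract libraries. As levels these are 10.7 and 10.1 CPM against 0.325 and 0.189 CPM. The exact Poisson intervals (95%) of the extract counts ran from 7.65 to 23.5 and from 4.12 to 17.1, for counting error only, and so do not separate the extract libraries from each other. The drop was 40.4-fold (log2 fold change -5.33, SE 0.36, edgeR adjusted p = 0.000651), and Timd4 ranked 22 among the 13963 genes tested when ordered from the most negative log2 fold change.

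The promoters of these 3 genes are shown because the genes fell together. Each runs from 250 bases before to 50 bases after the start site listed by RefSeq on GRCm38.p6, the assembly of mm10, in the direction of the gene. Capitals mark TGCTGA, a half-site of the recognition element of MAF family factors, or its reverse complement TCAGCA.
Clec4f promoter (chr6:83656067-83656366, minus strand): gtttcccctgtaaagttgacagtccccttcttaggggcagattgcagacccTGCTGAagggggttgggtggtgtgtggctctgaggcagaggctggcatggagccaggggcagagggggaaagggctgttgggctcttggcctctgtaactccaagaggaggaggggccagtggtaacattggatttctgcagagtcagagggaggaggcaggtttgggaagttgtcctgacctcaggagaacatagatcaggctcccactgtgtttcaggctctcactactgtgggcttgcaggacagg
Vsig4 promoter (chrX:96293389-96293688, minus strand): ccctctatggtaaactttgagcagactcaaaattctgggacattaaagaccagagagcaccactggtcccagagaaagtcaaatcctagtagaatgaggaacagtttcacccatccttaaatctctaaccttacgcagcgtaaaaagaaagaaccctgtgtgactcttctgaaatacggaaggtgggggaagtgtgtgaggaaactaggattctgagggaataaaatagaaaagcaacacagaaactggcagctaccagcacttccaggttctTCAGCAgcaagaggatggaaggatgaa
Timd4 promoter (chr11:46810549-46810848, plus strand): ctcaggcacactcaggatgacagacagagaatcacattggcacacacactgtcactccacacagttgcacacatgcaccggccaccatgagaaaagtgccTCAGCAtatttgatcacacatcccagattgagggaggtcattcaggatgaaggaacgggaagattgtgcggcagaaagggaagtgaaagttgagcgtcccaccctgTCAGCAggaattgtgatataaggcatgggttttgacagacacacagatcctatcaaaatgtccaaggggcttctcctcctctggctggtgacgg
The MAF half-site begins 199 bases before the start in Clec4f, at base 24 after the start in Vsig4, and 150 and 44 bases before the start in Timd4.

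RefSeq promoters were matched for 8 of the 10 genes, Adgre1 and Csf1r being the other two, and were searched on both strands for 4 short motifs. The MAF half-site TGCTGA was present in 6 of 8 (Clec4f, Vsig4, Timd4, Cd5l, Folr2 and Spic) and in 19.5% of 32851 promoters of the same length. The ETS motif GAGGAA, which the Spi1 product binds, was present in 3 of 8 (Vsig4, Cd5l and Marco) against 28.3% of promoters. The nuclear receptor motif AGGTCA was present in 2 of 8 (Clec4f and Timd4) against 16.3%, and TGGGAA, bound by the Notch effector RBPJ, in 2 of 8 (Clec4f and Marco) against 25.6%. No MAF half-site overlapped another searched motif in these promoters. The letters describe the windows and show no binding.

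The scavenger genes fell less deeply and less evenly. Cd163, the receptor for haptoglobin-bound haemoglobin, on chromosome 6 (124304636 to 124330529), stood at 17.1 and 23.8 CPM in the controls and at 1.14 and 1.51 CPM after the extract. It was among the members with the higher control level in replicate 2. The drop was 15.4-fold (log2 fold change -3.94, SE 0.28, edgeR adjusted p = 0.000711).

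Cd5l encodes a secreted scavenger protein of macrophages that circulates with immunoglobulin M, and lies on chromosome 3 (87357881 to 87371074). Its levels were 169.1 and 122.5 CPM in the controls and 11.3 and 11.6 CPM after the extract. The extract libraries were nearly equal and the groups did not overlap (12.8-fold lower, log2 fold change -3.67, SE 0.20, edgeR adjusted p = 0.000331).

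Folr2, the beta folate receptor of tissue macrophages, on chromosome 7 (101839988 to 101857190), went from 13.1 and 15.7 CPM to 1.11 and 0.986 CPM. Libraries of a group lay within a factor of 1.19 of each other. The drop was 13.7-fold (log2 fold change -3.77, SE 0.25, edgeR adjusted p = 0.000647). An antisense gene, Gm10602, overlaps exons of Folr2, and with no strand setting stated its reads cannot be told apart there.

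Marco, a scavenger receptor for bacteria and particles on chromosome 1 (120474538 to 120505024), had the smallest fold of the 10. It stood at 21.9 and 9.93 CPM in the controls and at 2.32 and 3.97 CPM after the extract. The control libraries differed by a factor of 2.21, and the groups did not overlap. The log2 fold change was -2.34 (SE 0.46, edgeR adjusted p = 0.0359). That value was -1.66 without control replicate 1, and the call was lost without extract replicate 1 (adjusted p = 0.135) or extract replicate 2 (0.0524).

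Spic, the factor that directs iron-recycling macrophages of the spleen and is also found in Kupffer cells, lies on chromosome 10 (88675269 to 88683023) and had the lowest counts of the 10 genes in the controls. It had 126 and 47 counts in the controls and 6 and 12 counts after the extract. These correspond to 2.63 and 1.58 CPM against 0.139 and 0.252 CPM, with no overlap. The log2 fold change was -3.41 (SE 0.62, edgeR adjusted p = 0.0209), and the call was lost without extract replicate 1 (0.143) or extract replicate 2 (0.0742).

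The general macrophage genes fell as well, by less. Csf1r, the receptor for CSF1 and IL-34 on all macrophages and monocytes, on chromosome 18 (61105572 to 61131139), stood at 97.5 and 62.7 CPM in the controls and at 11.6 and 10.9 CPM after the extract. The groups were far apart although the controls differed by a factor of 1.56 (7.12-fold lower, log2 fold change -2.83, SE 0.23, edgeR adjusted p = 0.00158). Csf1r shares 873 exonic bases with Hmgxb3 on the other strand, whose level was 20.4 and 20.2 CPM in the controls and 23.7 and 23.5 CPM after the extract.

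Adgre1, the adhesion receptor recognised by the classical macrophage antibody in mouse, on chromosome 17 (57358581 to 57483529), stood at 41.4 and 18.9 CPM in the controls and at 6.26 and 2.94 CPM after the extract. Libraries within each group differed by more than a factor of 2, and the groups did not overlap. Its log2 fold change was -2.72 (SE 0.57), and it was the member that missed the threshold (edgeR adjusted p = 0.0651, unadjusted 0.00662). DESeq2 gave an adjusted p of 1.77e-08 and limma-voom 0.0303. Without control replicate 1 the log2 fold change was -2.04 (adjusted p = 0.033). The call was missed without control replicate 2 (0.164), extract replicate 1 (0.0781) or extract replicate 2 (0.153), and without a filter on low counts (0.238).

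**Figure D2:**
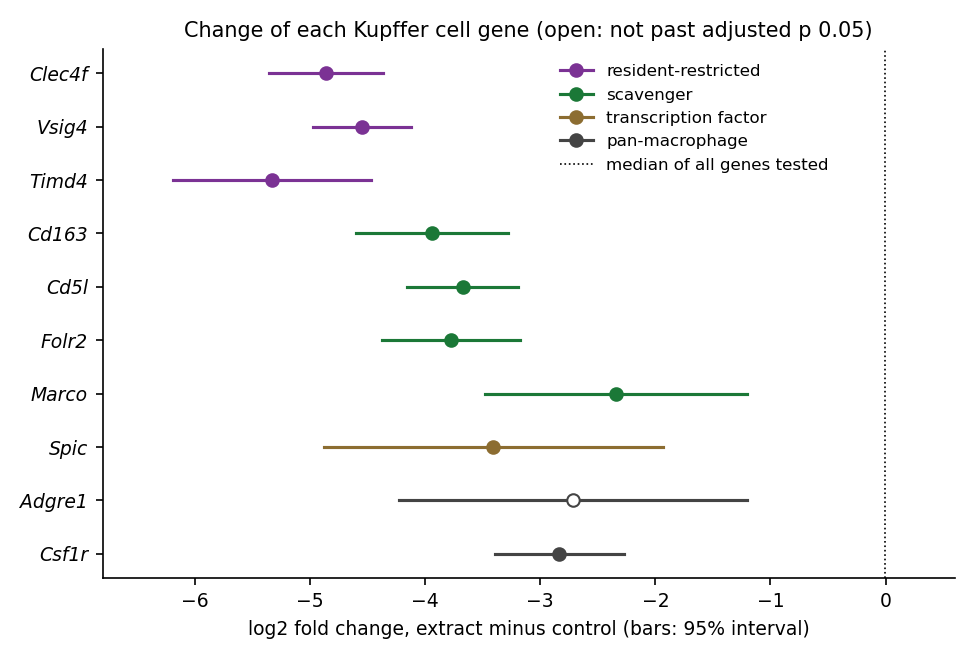
Log2 fold change of each gene, extract minus control, from edgeR with its 95% interval, coloured by role. The filled points passed an adjusted p of 0.05, Adgre1 is the open one, and the dotted line is the median of all genes tested. The intervals of Clec4f, Vsig4 and Timd4 lie wholly below that of Csf1r, and those of Clec4f and Timd4 below that of Adgre1. The interval of Vsig4 (-4.98 to -4.12) overlaps that of Adgre1 (-4.23 to -1.21).

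Whether genes restricted to resident cells fell further than general macrophage genes was read from ratios of counts within a library, which do not depend on library size. Each ratio depends on the lengths of both genes, which cancel when the groups are compared. Clec4f counts per Csf1r count were 1.71 and 2.55 in the controls and 0.409 and 0.595 after the extract. The groups did not overlap, and the ratio was 4.24-fold lower after the extract. Vsig4 per Csf1r went from 0.490 and 0.655 to 0.160 and 0.177, a 3.37-fold drop. Timd4 per Csf1r went from 0.110 and 0.161 to 0.0281 and 0.0173, a 6.03-fold drop.

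Ratios to Adgre1 were also lower in both extract libraries. In the controls each scattered more than the ratio of the same gene to Csf1r, and after the extract this held for Clec4f and Vsig4 but not for Timd4. Clec4f per Adgre1 was 4.03 and 8.49 in the controls and 0.756 and 2.21 after the extract, 4.52-fold lower. Vsig4 per Adgre1 was 1.15 and 2.18 against 0.296 and 0.657, 3.59-fold lower, and Timd4 per Adgre1 was 0.258 and 0.534 against 0.0519 and 0.0643, 6.43-fold lower. In all 6 pairs both extract libraries lay below both control libraries. A 2-sided exact permutation test with 2 libraries a group cannot go below p = 0.333, which each of the 6 pairs gave, before and after adjustment over the 6, so these ratios cannot pass a threshold in this design. Leaving out 1 library at a time kept every ratio lower after the extract, with log2 differences between -3.21 and -1.27.

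**Figure D3:**
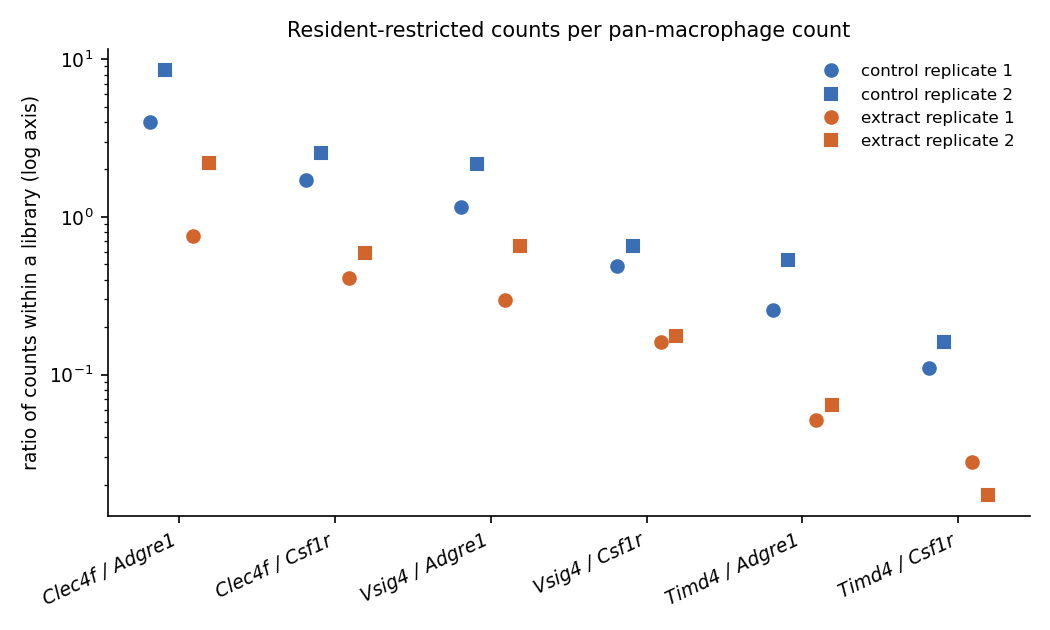
Counts of each resident-restricted gene per count of each general macrophage gene in each library, on a log axis, with blue for control and orange for extract libraries. In all 6 pairs the orange points lie below the blue ones, and the pairs with Csf1r scatter less within a group than those of Clec4f and Vsig4 with Adgre1.

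The order of the genes by level changed. Levels per length were taken as CPM per kilobase of exons annotated in GENCODE vM21. In the controls Cd5l (71.6) and Clec4f (66.1) led without separating from each other, followed by Vsig4 (29.9) and Csf1r (13.9) in CPM per kilobase. Folr2 (9.30), Adgre1 (9.30) and Marco (8.27) overlapped in the controls, and Timd4 (4.78), Cd163 (3.74) and Spic (0.548) closed the order without overlap between neighbours. After the extract Cd5l (5.62) alone led. Clec4f (2.27), Csf1r (1.95), Marco (1.63), Adgre1 (1.42) and Vsig4 (1.28) then formed a run in which each gene overlapped the next, so Csf1r lay above Vsig4 where it had lain below it in the controls.

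The genes whose pattern over the 4 libraries came closest to that of Clec4f, Vsig4 and Timd4 were Npas2, Cxcl13, Fhit, Cyp8b1 and Serpina1e. Likeness was the Euclidean distance between mean-centred log2(CPM + 0.1) values over 4 libraries, among 12170 genes of at least 1 CPM, and was 0.354 for Npas2, a clock factor, and 0.385 for Cxcl13, a chemokine that Kupffer cells make. Cxcl13 had 135 and 105 counts in the controls and 2 and 1 counts after the extract. Fhit (0.557), the bile acid 12-alpha-hydroxylase Cyp8b1 (0.629) and the plasma protease inhibitor Serpina1e (0.922) followed, so genes of hepatocytes stood among the closest. Fhit had 1 and 0 counts after the extract. The edgeR log2 fold changes of Fhit (-8.21) and Cxcl13 (-6.46) were deeper than those of the 3 members (-5.33 to -4.55). The added 0.1 CPM limits how far such genes can fall, so their closeness depends in part on it. The likeness rests on 4 values per gene and describes these libraries alone.

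Other Kupffer cell genes fell with the members. Of 16 tested, edgeR called 14 lower (87.5%, against 3.63% of all genes) and 0 higher (against 4.91%). It left 2 short of the threshold, and the median log2 fold change was -2.22. At an unadjusted p under 0.05 all 16 were lower and 0 higher, DESeq2 called 16 lower and 0 higher, and limma-voom called 14 and 0. Over all genes DESeq2 called 909 lower and 1027 higher of 25239 listed, and limma-voom 474 lower and 682 higher of 13963. The share of all genes at an unadjusted p under 0.05 is not given here. List counts at that threshold therefore have no background beside them. The complement C1q chains, which macrophages make in the liver, fell together. C1qa had 4662 and 2127 counts in the controls and 592 and 683 after the extract (log2 fold change -2.59, SE 0.19, edgeR adjusted p = 0.000808), and C1qb (-2.11) and C1qc (-2.34) fell by similar amounts. Siglec1, a sialic acid receptor of resident macrophages, fell 5.65-fold by mean CPM, from 811 and 419 counts to 121 and 128 (edgeR adjusted p = 0.00159). Axl, Slc11a1 and Slc40a1 are on this list and are described with the other lists that hold them. The summed level of the list was 747.8 and 593.1 CPM in the controls and 200.1 and 225.5 CPM after the extract.

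Genes that macrophages share more widely were lower in part. Of 16 other pan-macrophage genes tested, edgeR called 10 lower (62.5%, against 3.63% of all genes) and 0 higher (against 4.91%). At an unadjusted p under 0.05, 12 were lower and 0 higher, DESeq2 called 12 and 0, and limma-voom 10 and 0. The list's median was -1.40. Tyrobp (-2.07), the signalling adaptor of myeloid receptors, the lysosomal protease Ctss (-1.94) and the immunoglobulin receptors Fcgr3 (-1.97) and Fcgr1 (-2.36) had the smallest p-values. Over the list 13 log2 fold changes were negative and 3 positive. The positive ones were Mertk (0.10), Cd14 (0.38) and Itgam (0.80), none past the threshold. Fcgr1 lost its call without extract replicate 1 (edgeR adjusted p = 0.0585). The count of lower genes on this list was 5 with either extract library left out, and 12 and 13 without control replicates 1 and 2. The lists were not compared with each other by a test.

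Few transcription factors of Kupffer cells passed the test. Of 18 tested, edgeR called 2 lower and 1 higher, or 11.1% lower and 5.56% higher, against 3.63% lower and 4.91% higher over all genes. Spi1, the master factor of macrophages, fell from 596 and 224 counts to 127 and 182 (log2 fold change -1.56, SE 0.32, edgeR adjusted p = 0.0307), but its call was lost without extract replicate 1 (0.165) or extract replicate 2 (0.0744). Maf, which is also expressed in sinusoidal endothelium, fell by 1.07 on the log2 scale (edgeR adjusted p = 0.00864, and 0.0871 without extract replicate 1). Cebpb, which hepatocytes also express, rose by 0.90 (edgeR adjusted p = 0.012, and 0.113 and 0.103 without extract replicates 1 and 2), and Zeb2 stood at -0.74 (edgeR adjusted p = 0.163). The liver X receptor gene Nr1h3 (-0.16) and Id3 (-0.78), named after their values were seen, are required for Kupffer cell identity in mouse and were not past the threshold. Hepatocytes express Nr1h3 too, so whole-liver levels do not isolate its level in Kupffer cells.

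Signals of the Kupffer cell niche had few calls, and their direction depended on the tool. Among 17 tested, edgeR called 2 higher (11.8%, against 4.91% of all genes) and 0 lower (against 3.63%), with a median of 0.21. At an unadjusted p under 0.05, 3 were higher and 4 lower, DESeq2 called 3 higher and 3 lower, and limma-voom called 1 higher and 0 lower. The adhesion molecule Icam1 rose from 1209 and 460 counts to 2060 and 2191 (log2 fold change 1.20, SE 0.24, edgeR adjusted p = 0.0299, and 0.0937 and 0.078 without extract replicates 1 and 2). The Notch ligand Dll1 rose by 1.13 (edgeR adjusted p = 0.0462), and by 1.27 and 0.951 without extract replicates 1 and 2, its call lost with either left out. Its call was also lost under the strict filter (edgeR adjusted p = 0.0504), without the robust step (0.0523) and by limma-voom (0.0534). The Notch ligand Dll4 and the adhesion molecule Vcam1, named after their values were seen, stood at -1.19 and -1.16 (edgeR adjusted p = 0.109 and 0.24). Over the list 9 log2 fold changes were positive and 8 negative. Csf1, the ligand of the receptor encoded by Csf1r, averaged 13.8 ± 3.15 CPM (SD, n = 2) in the controls and 22.8 ± 2.74 CPM (SD, n = 2) after the extract (log2 fold change 0.72, edgeR adjusted p = 0.0873). Gdf2, a BMP ligand of stellate cells, stood at -0.51 (edgeR adjusted p = 0.0785).

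Other scavenger and engulfment receptors were lower in part. By edgeR 5 of 17 tested were lower (29.4%, against 3.63% of all genes) and 0 higher (against 4.91%). At an unadjusted p under 0.05, 7 were lower and 1 higher, DESeq2 called 7 and 0, and limma-voom 5 and 0. The list's median was -0.51. Mrc1 (-2.25), the mannose receptor, and Stab2 (-2.01), a hyaluronan receptor, are both mainly genes of sinusoidal endothelium in the liver. The macrophage scavenger receptor Msr1 fell by 1.78 on the log2 scale, from 625 and 487 counts to 190 and 199, and Axl, a receptor for dying cells, by 1.73 (edgeR adjusted p = 0.0254, and 0.0534 and 0.0905 without extract replicates 1 and 2).

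Genes of haem and iron handling, which include the recycling work of Kupffer cells, had calls in both directions. The list also holds genes of far higher level, such as Trf (mean 19520 CPM in the controls) and Hp (2735 CPM). Whole-liver levels do not isolate the part of Kupffer cells in any gene of this list. Of 15 tested, edgeR called 2 lower and 2 higher (13.3% each, against 3.63% and 4.91% of all genes), with a median of -0.02. The macrophage metal transporter Slc11a1 fell by 1.71 on the log2 scale (adjusted p = 0.0161) and the iron exporter Slc40a1 by 0.85 (0.047). The haem transporter Slc48a1 rose by 0.71 (0.0214) and the biliverdin reductase Blvrb by 1.36 (0.0235), from 2665 and 2743 counts to 7961 and 9304. All 4 calls were lost with either extract library left out, with edgeR adjusted p from 0.0559 to 0.339. Slc40a1 also missed the threshold under total counts (0.0871), the strict filter (0.0501), no robust step (0.0538) and the replicate block (0.0612). The haem oxygenase gene Hmox1, named after its values were seen, stood at -1.64 (edgeR adjusted p = 0.0873). It had 50.1 and 21.5 CPM in the controls and 11.4 and 11.6 CPM after the extract. Over the list 8 log2 fold changes were negative and 7 positive.

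**Figure D4:**
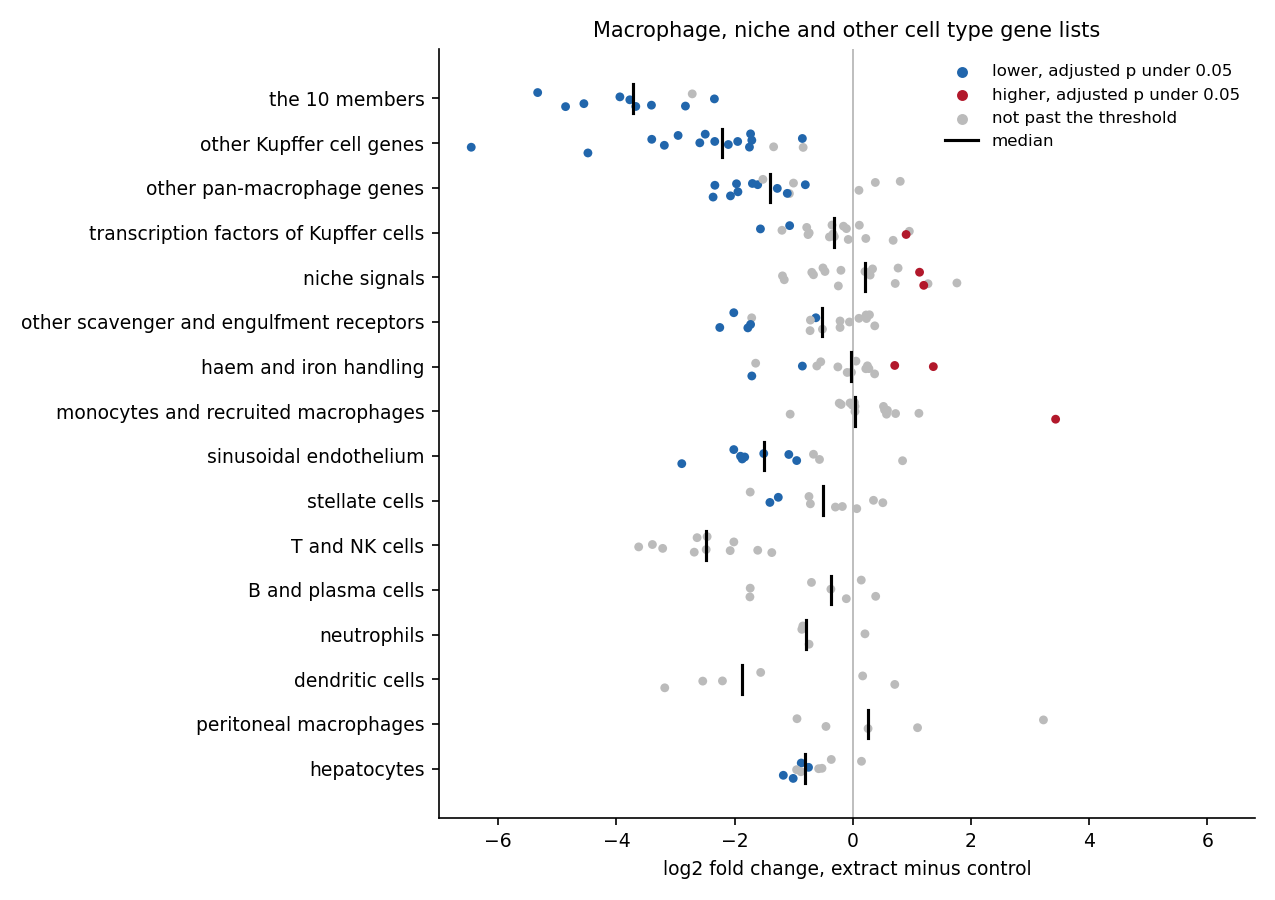
Log2 fold change, extract minus control, of every tested gene on each list, with blue and red points past an adjusted p of 0.05, grey points not past it and a black bar at the list median. The members' median lies furthest to the left (-3.72), followed by T and NK cells (-2.48, from -3.43 to -1.32 with 1 library left out, with no gene past the threshold) and the other Kupffer cell genes (-2.22), and the recruited macrophage list has its median at 0.04 (1.15 without control replicate 1).

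Markers of monocytes and recruited macrophages were called at about the share of all genes. Of 15 tested, edgeR called 1 higher (6.67%, against 4.91% of all genes) and 0 lower (against 3.63%). The higher and lower counts were 2 and 0 at an unadjusted p under 0.05, 1 and 0 by DESeq2, and 1 and 0 by limma-voom. The list's median was 0.04, and 1.15 without control replicate 1. Over the list 10 log2 fold changes were positive and 5 negative. Their summed level was 178.8 and 180.8 CPM for the list's genes in the controls and 189.3 and 207.0 CPM after the extract. Genes of higher level weigh most in this sum. Of the control sums Spp1 held 31.8 and 39.6 CPM, while Ccr2 held 3.84 and 1.48 CPM. Gpnmb, a glycoprotein of lipid-laden macrophages, rose from 17 and 5 counts to 155 and 110 (log2 fold change 3.43, SE 0.56, edgeR adjusted p = 0.0151, and 0.131 without extract replicate 1). Cd9 stood at 0.54 (edgeR adjusted p = 0.122). Without control replicate 1 more genes were called higher on this list, and also over all genes. Several of these genes, among them Spp1 and Cd9, are also expressed by other liver cells.

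Markers of other leukocytes moved with control replicate 1. Of the T and NK cell genes 0 of 11 were called by edgeR (6 lower at an unadjusted p under 0.05, 4 by DESeq2, 0 by limma-voom), with a median of -2.48 and all 11 log2 fold changes negative. Leaving out control replicate 1 gave a median of -1.32, and leaving out extract replicate 2 gave -3.43, so its order beside the other Kupffer cell genes (-2.38 to -2.08 over the same fits) was not stable. For Gzma, a granzyme, the counts were 371 and 44 in the controls and 16 and 18 after the extract (edgeR adjusted p = 0.0551), and for Nkg7 they were 232 and 22 against 14 and 10 (0.0896). Among 6 dendritic cell genes tested 0 were called (4 lower at an unadjusted p under 0.05, 2 by DESeq2, 0 by limma-voom). The MHC class II gene H2-Ab1 had 5313 and 829 counts in the controls and 527 and 557 after the extract (edgeR adjusted p = 0.163), and Clec9a stood at -1.56 (0.0553). No gene of these lists was listed at 0 in all libraries.

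Adgre1 and Marco were 2.20 and 2.21 times higher in control replicate 1 than in control replicate 2. The leukocyte sums were also higher there, by larger factors for T and NK cell genes and for the dendritic cell list, whose sum was mostly H2-Ab1. Clec4f and Timd4 differed by factors of 1.04 and 1.06. The part of other leukocytes in the levels of Adgre1, Marco and Csf1r was not tested. Without control replicate 1, the leukocyte-rich library, log2 fold changes were -4.83 for Clec4f, -4.44 for Vsig4 and -5.29 for Timd4. In the same fit they were -2.48 for Csf1r, -2.04 for Adgre1 and -1.66 for Marco. With all libraries the values for Adgre1 and Marco were -2.72 and -2.34.

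**Figure D5:**
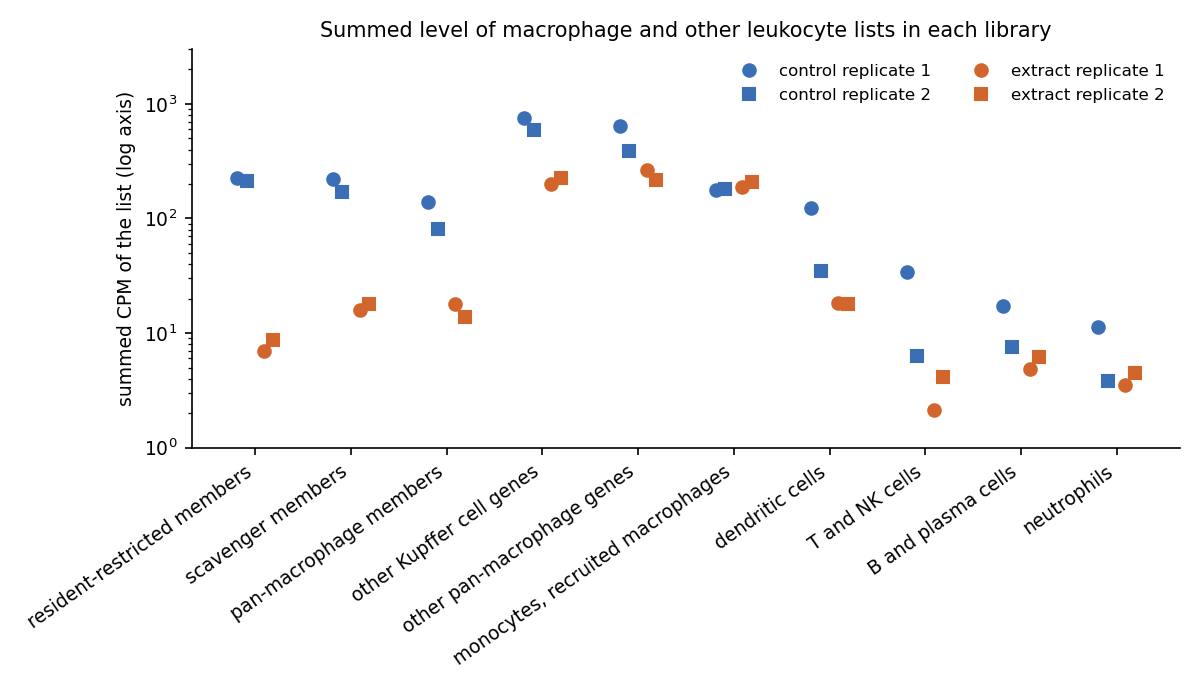
Summed CPM of macrophage and other leukocyte lists in each library on a log axis, with blue for control and orange for extract libraries, circles for replicate 1 and squares for replicate 2. Control replicate 1 lies above control replicate 2 for dendritic, T and NK, B and plasma cell and neutrophil genes. It also lies above for scavenger members, pan-macrophage members (138.8 and 81.5 CPM), other pan-macrophage genes and other Kupffer cell genes. The resident-restricted members nearly coincide (225.2 and 211.1 CPM), as does the recruited macrophage list (178.8 and 180.8 CPM).

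The remaining lists of other cell types went as follows by edgeR, which called 3.63% of all genes lower and 4.91% higher. Sinusoidal endothelium had 8 of 11 genes lower and 0 higher (10 and 0 at an unadjusted p under 0.05, 8 and 0 by DESeq2 and by limma-voom), with Stab2 (-2.01) and Gpr182 (-1.87) at the smallest p-values. Stellate cells had 2 of 10 lower, Colec11 (-1.40) and Ecm1 (-1.26), and hepatocytes had 4 of 10 lower, with Serpina1a (-1.18) and Fgb (-1.01) at the smallest p-values. The calls of Colec11 and Fgb were lost with either extract library left out, and those of Ecm1 and Serpina1a without extract replicate 1. B and plasma cell, neutrophil and peritoneal macrophage genes had 0 called of 7, 4 and 5 tested, with 1 lower, 0 and 2 lower at an unadjusted p under 0.05. For these, among the genes edgeR tested, DESeq2 called 1 lower, 0 and 0 lower, and limma-voom called 0 lower on each. At an unadjusted p under 0.05, 1 peritoneal macrophage gene was higher, and DESeq2 called 1 higher. By value, Jchain stood at -1.74, Csf3r at -0.74, S100a9 at -0.85, Selp at 1.09 and Prg4 at -0.45, none past the threshold. The part of the lower endothelial and hepatocyte levels in the members' values was not tested.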

How the data were processed

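Total RNA was taken from liver with Trizol and sequenced as Illumina libraries, per the labels' protocols. CASAVA 1.8, HISAT2 2.1.0, HTSeq and the mm10 build are named per the submitters' processing notes, with no roles. The sources used here do not give the annotation, strand setting or HTSeq version. The authors deposited raw counts, 1 whole number per gene symbol and library, for 25239 genes. The 5 closing lines of each file that name no gene held 17.2%, 22.0%, 16.5% and 17.4% of all records in control replicates 1 and 2 and extract replicates 1 and 2 and stayed out of library sizes and tests.

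Counts were fitted over the whole table with edgeR 4.0.16 in R 4.3.3 (filterByExpr, TMM, robust quasi-likelihood F test, 2-sided, Benjamini-Hochberg over 13963 genes, threshold 0.05). CPM use TMM-scaled library sizes, so 1 read is worth 0.0208, 0.0337, 0.0232 and 0.0210 CPM. The standard error is the log2 fold change over the square root of F. The members and lists were chosen with earlier results of these data known, so no list was tested as a set. All members were named, with up to 4 genes of smallest p per pathway list and 2 per cell type list at a mean of at least 1 CPM, and 1 more called in the other direction. Alternatives were other scalings, filters, DESeq2 1.42.0, limma-voom (limma 3.58.1), no robust step, a replicate block and leaving out each library. Simulated counts of 13749 genes with 2 libraries a group held 50 genes changed at each of 8-, 4-, 2- and 1.5-fold. Of these edgeR recovered 45 at 8-fold (90%), 39 at 4-fold (78%), 19 at 2-fold (38%) and 4 at 1.5-fold (8%). It also called 15 unchanged genes, a larger share of its calls than the 0.05 that the threshold aims at. The libraries of a group differed by more than sampling noise (chi-square over its degrees of freedom 118.1 for control, 29.1 for extract).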

Additional observations from a re-analysis of the deposited data

How the results depend on the processing

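With 2 libraries a group, calls depended on the libraries used. Over 13 alternatives every member stayed lower after the extract, and 119 of 130 member values kept their side of the threshold. Leaving out 1 library gave 7 to 10 members lower, 3 of 3 resident-restricted and 1 to 2 of 2 pan-macrophage genes lower, and a member median from -3.81 to -3.66. Both pan-macrophage genes were called without the robust step, with the replicate block, by DESeq2 and by limma-voom (2 each). With total counts, which move the median of all genes by 0.17, the member median was -3.56. DESeq2 called 909 genes lower over all genes, and leaving out 1 library gave 134 to 1782 lower and 233 to 1826 higher. In those fits the lone library is assumed to vary like the other group. The cause of these changes was not tested.

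The replicate numbers share only a number. The same-numbered libraries deviated together at r = 0.15 across 13963 genes, in 2 pairs. With the replicate block 9 members were lower, Marco lost its call (adjusted p = 0.116) and Adgre1 gained one (0.000387). On the lists the block gave 2 transcription factors higher, 1 niche signal lower, 2 T and NK and 1 dendritic cell genes lower, and 7 hepatocyte genes lower.

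Marco was also not past the threshold without a filter on low counts (adjusted p = 0.0603, with 8 members lower). By setting, list counts that moved were as follows. Total counts gave 1 transcription factor lower, 1 scavenger receptor higher and 1 haem and iron gene lower. No filter gave 1 niche signal, 4 stellate, 1 T and NK, 1 B and plasma, 1 neutrophil and 1 dendritic cell gene lower. The strict filter gave 1 niche signal higher and 1 haem and iron gene lower. Without the robust step there were 1 niche signal higher and 1 T and NK gene lower. DESeq2 gave 3 niche signals, 5 haem and iron, 4 stellate, 4 T and NK, 1 B and plasma, 2 neutrophil (of 10, since edgeR tested 4), 2 dendritic and 7 hepatocyte genes lower and 1 peritoneal macrophage gene higher. Limma-voom gave 1 niche signal higher, and upper-quartile scaling 1 dendritic cell gene lower.

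Leaving out 1 library at a time gave these ranges of lower genes: 5 to 13 pan-macrophage, 0 to 7 transcription factor, 0 to 5 niche, 3 to 8 scavenger receptor, 0 to 5 haem and iron, 3 to 9 sinusoidal, 0 to 6 stellate, 0 to 10 T and NK, 0 to 1 B and plasma, 0 to 5 neutrophil, 0 to 5 dendritic, 0 to 1 peritoneal macrophage and 0 to 7 hepatocyte genes. Higher genes ranged over 0 to 4 transcription factor, 0 to 5 niche, 0 to 1 scavenger receptor, 0 to 3 haem and iron, 0 to 6 recruited macrophage, 0 to 1 sinusoidal, 0 to 2 neutrophil and 0 to 2 peritoneal macrophage genes.

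List medians that changed sign without control replicate 1 were those of scavenger receptors (-0.57 to 0.0056 over the libraries left out), haem and iron (-0.035 to 0.11), B and plasma cells (-0.72 to 0.14) and neutrophils (-1.25 to 2.35). The peritoneal macrophage median ran from -0.48, without extract replicate 1, to 0.57. With total counts the haem and iron median was 0.15. S100a9 turned to 0.12 with the replicate block and 0.63 by limma-voom, and ran from -1.79 to 4.63, the latter without control replicate 1. Adding 1 count to each gene left the ratios of counts lower after the extract, with log2 differences from -2.57 to -1.74.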
